A study of Mus musculus with 4 samples.

Results

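The binding of 2 transcription factors at 10 genes of the circadian clock was examined in mouse liver. The genes were Per1, Per2, Cry1, Cry2, Arntl, Clock, Nr1d1, Nr1d2, Dbp and Nfil3, 10 of the 21938 protein-coding genes of the annotation. They were chosen by name, with earlier results of these data known. Every called peak that the deposited annotation assigned to one of them, or that lay within 50 kb of its start, was collected. Of 17545 peaks in 4 samples, 47 were assigned to a clock gene.

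ChIP-Seq for the glucocorticoid receptor (GR) and for E2A was performed with 2 replicates each, and the study describes the E2A ChIP as done on the same livers as the GR ChIP. All 4 samples came from male C57BL/6 mice with the wild-type E47+/+ genotype. The mice were 10 to 16 weeks old, were kept on chow in a 12 h light and dark cycle, and received no treatment according to the labels. Livers were taken at ZT10, that is 10 h after lights on. Only this 1 time of day was sampled, so no rhythm can be read from the data. A description attached to the first E2A sample names GR, and that of the second names GR in E47-/- mice, whereas title, antibody and genotype give E2A in wild type and were followed. A supplement of the study calls the same livers Dex-treated, in conflict with the labels.

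GR is the nuclear receptor that binds glucocorticoids such as corticosterone, and it recognises paired half-sites known as glucocorticoid response elements (GREs). E2A is the gene Tcf3, whose products E12 and E47 are basic helix-loop-helix proteins that bind E-boxes, the sequence CANNTG. The circadian clock is a feedback loop of transcription. CLOCK and BMAL1, the product of Arntl, are themselves basic helix-loop-helix proteins that bind the E-box CACGTG and drive Per, Cry, Nr1d and Dbp genes. PER and CRY proteins repress CLOCK and BMAL1. The nuclear receptors REV-ERBα and REV-ERBβ, products of Nr1d1 and Nr1d2, repress Arntl through ROR elements (ROREs). DBP activates and NFIL3 represses genes through D-boxes. In the liver the clock times metabolism with feeding, and Per1 is a well-known gene induced by glucocorticoids.

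The sequences on which the results turn are given first, as the plus strand of mm10, 5′ to 3′, with matches to a searched short sequence in capitals. Matches to CANNTG other than CACGTG were left in lower case, and E-box in the labels below stands for CACGTG. At Per1 they are the bases shared by the peaks of all 4 samples up to the gene start (chr11:69094929-69095216, capitals CACGTG), and the GRE-like stretches under peaks of both GR replicates (chr11:69097046-69097120 and chr11:69099386-69099460, capitals the whole match with its 3 free bases). The first stretch is intronic in 1 of 6 GENCODE transcripts of Per1 and the second in 2 of 6, and the other transcripts do not span them. The second lies in a region that the deposited annotation calls a promoter.
Per1 promoter, called in 4 samples: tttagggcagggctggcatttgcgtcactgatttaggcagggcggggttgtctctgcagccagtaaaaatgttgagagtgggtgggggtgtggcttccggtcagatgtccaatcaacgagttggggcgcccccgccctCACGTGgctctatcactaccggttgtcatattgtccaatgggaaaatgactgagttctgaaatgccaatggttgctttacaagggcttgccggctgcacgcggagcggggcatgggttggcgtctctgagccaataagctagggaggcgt
Per1, first GRE-like stretch: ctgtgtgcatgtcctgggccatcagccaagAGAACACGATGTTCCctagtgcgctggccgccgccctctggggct
Per1, second GRE-like stretch: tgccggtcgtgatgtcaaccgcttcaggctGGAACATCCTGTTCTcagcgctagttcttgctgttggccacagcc
The GRE was searched as AGAACA, 3 free bases and TGTTCT, with at most 1 mismatch. Counted from 1 at the 5′ end of the plus strand, with the searched base first, the first match departed by T15C and the second by A1G.

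The remaining stretches were chosen after their matches had been seen. In Nr1d1 they are an E-box pair (chr11:98773829-98773909) and the bases shared by 3 peaks, with a D-box and another E-box (chr11:98773927-98774169). In Nfil3 they hold a second E-box pair (chr13:52974828-52974908), and in Nr1d2 3 E-boxes and a D-box (chr14:18238515-18238688). Near the Per2 start lies a D-box that reads on the minus strand (chr1:91459412-91459479), and next to the Arntl start a RORE (chr7:113207528-113207557).
Nr1d1 intron 1, E-box pair: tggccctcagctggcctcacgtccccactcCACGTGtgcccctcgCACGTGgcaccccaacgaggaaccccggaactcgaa
Nr1d1 intron 1, bases shared by 3 samples: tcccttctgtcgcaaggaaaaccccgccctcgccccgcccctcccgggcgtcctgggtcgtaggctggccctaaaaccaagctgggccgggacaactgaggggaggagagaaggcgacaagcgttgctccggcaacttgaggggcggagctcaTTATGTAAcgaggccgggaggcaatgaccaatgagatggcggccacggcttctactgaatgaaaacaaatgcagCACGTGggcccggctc
Nfil3 intron 1, E-box pair: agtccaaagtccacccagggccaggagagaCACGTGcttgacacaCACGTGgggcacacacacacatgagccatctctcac
Nr1d2, E-boxes and D-box: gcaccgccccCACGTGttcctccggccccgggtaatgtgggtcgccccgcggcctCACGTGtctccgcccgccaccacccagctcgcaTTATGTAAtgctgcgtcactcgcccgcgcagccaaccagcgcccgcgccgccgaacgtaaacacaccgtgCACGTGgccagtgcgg
Per2, upstream of the start: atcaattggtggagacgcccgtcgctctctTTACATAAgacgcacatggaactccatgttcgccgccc
Arntl, RORE: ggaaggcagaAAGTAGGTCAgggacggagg
D-boxes were searched as TTATGTAA and TTATGCAA, and the RORE as TAGGTCA preceded by A and 2 free bases, all on both strands. A match is a run of letters and was not tested as a binding site.

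GR replicate 1 held 4291 peaks, GR replicate 2 held 7334, E2A replicate 1 held 4028 and E2A replicate 2 held 1892. The lists give positions without heights, read counts or q-values, so the depth behind a peak is unknown and strength of binding was not measured. Promoters took 57.4% of all peaks in GR replicate 2 against 34.3 to 41.2% in the other samples. All 7 hepatocyte marker genes examined, among them Alb and Tat, had a GR peak in both replicates within 50 kb of their start, as had 8 of 9 known GR targets, compared with 21.4% of all protein-coding genes. An E2A peak in both replicates was found near 5 of the 7 and 3 of the 9 (all genes 11.4%). The macrophage markers Adgre1, Csf1r and Clec4f (0 of 3) had no peak of either ChIP in this window. Of other cell types, 2 of 3 T cell and 2 of 3 endothelial markers had both GR and E2A peaks in both replicates. Of 4 B cell markers, 2 had a GR peak and 1 an E2A peak, in 1 replicate each, and of 2 stellate cell markers 0 had GR and 1 had E2A in 1 replicate. Over all protein-coding genes, 44% had a GR peak and 28.8% an E2A peak in at least 1 replicate. The window also holds neighbouring genes. In whole liver, a site bound in few cells and a site bound weakly in many cannot be told apart.

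Within 50 kb of the start, 9 of 10 had a GR peak in at least 1 replicate, compared with 44% of all protein-coding genes, and 7 of 10 had an E2A peak, compared with 28.8%. Per1, Per2, Cry2, Nr1d1 and Nfil3 had a GR peak in both replicates (5 of 10, all genes 21.4%). For E2A all 7 genes had a peak in both replicates (7 of 10, all genes 11.4%), namely Per1, Per2, Cry1, Nr1d1, Nr1d2, Dbp and Nfil3. Clock, which encodes the partner of BMAL1, was the gene with no peak of either ChIP in this window, and Cry2 and Arntl had none of E2A.

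Peaks in both replicates need not be at the same position. Within 1 kb of the start, 7 clock genes had a GR peak in at least 1 replicate (all genes 19.6%) and Per1, Cry2 and Nfil3 had one in both (3 of 10, all genes 5.35%). For E2A, Per1, Per2, Nr1d2 and Nfil3 had a peak within 1 kb (4 of 10, all genes 8.53%), and Per1 and Nr1d2 had one in both replicates (2 of 10, all genes 2.46%). The median distance from a clock gene start to the closest peak was 4076 bp in GR replicate 1, 0 bp in GR replicate 2, 2923 bp in E2A replicate 1 and 7350 bp in E2A replicate 2. Over all protein-coding genes the medians were 200728, 77736, 173542 and 392648 bp in the same order. The median clock gene was the nearer one in each sample, but single clock genes were farther from a peak than the median of all genes. In GR replicate 1 these were Clock, Arntl and Nr1d2, in GR replicate 2 Cry1 and Clock, in E2A replicate 1 Clock, and in E2A replicate 2 Cry2, Arntl and Clock. These shares and distances describe 10 genes chosen by name, with earlier results of these data known, and they were not tested.

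**Figure D1:**
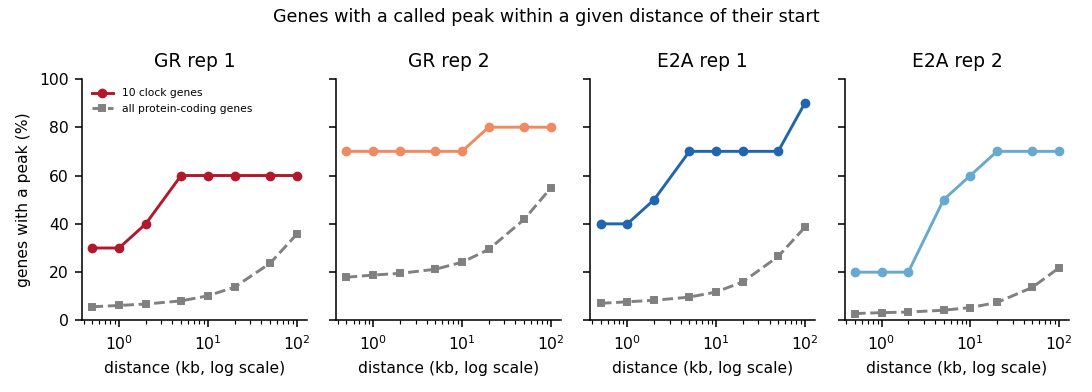
Share of genes (%) with a called peak within a given distance of their start (kb, log scale), 1 panel per sample, for the 10 clock genes (coloured circles) and all protein-coding genes (grey squares). The clock genes lie above all genes at each distance drawn, and at 50 kb they reach 60.0% in GR replicate 1 against 23.6%.

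By the deposited nearest gene, GR replicate 1 had 12 peaks at clock genes, GR replicate 2 had 17, E2A replicate 1 had 12 and E2A replicate 2 had 6. A GR peak in both replicates was assigned to Per1, Per2, Cry2, Nr1d1 and Nfil3 (5 of 10, all genes 9.3%). For E2A these were Per1, Per2, Cry1, Nr1d2 and Nfil3 (5 of 10, all genes 4.62%). Per1 and Per2 led with 10 peaks each over the 4 samples, a number exceeded by 172 of the 6521 genes with any peak (2.64%). Nfil3 followed with 8 peaks, Dbp with 5, Nr1d1 with 4, Cry1 and Nr1d2 with 3, and Cry2 and Arntl with 2. The median was 3.5 over the 10 clock genes, including Clock with no peak, and 2 over all genes with a peak.

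**Figure D2:**
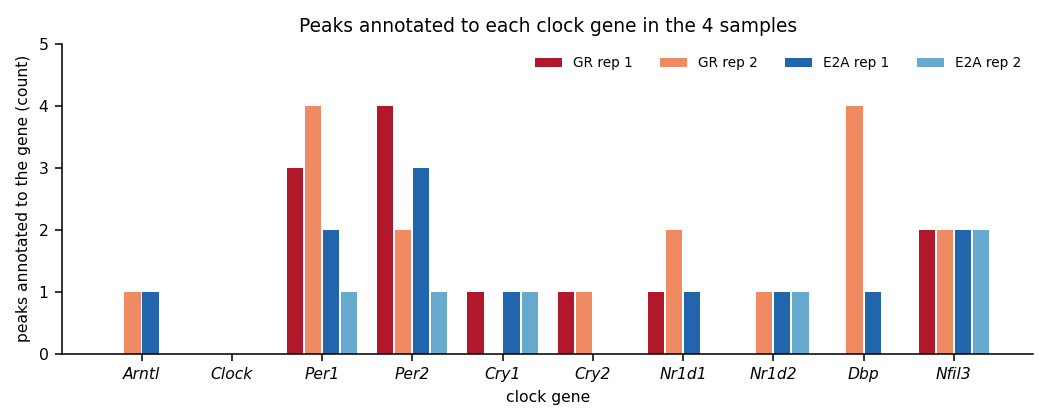
Number of called peaks that the deposited annotation assigned to each clock gene (bars, count), coloured by sample. Nfil3 had 2 peaks in every sample, Clock had none, and the 4 GR peaks of Dbp were all in replicate 2.

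The Per1 counts were 3 and 4 in the GR replicates and 2 and 1 in the E2A replicates. Phyh, Olfr541 and 1700108F19Rik had exactly these 4 counts. Per2 had 4 and 2 GR peaks and 3 and 1 E2A peaks, and the 5 closest genes, Hlf, Dapk1, Hnrnpll, Serpina3m and Susd1, differed from it by 1 peak in 1 sample. Likeness was measured as the Euclidean distance between the counts of the 4 samples.

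Peaks of the 4 samples that shared at least 1 bp were joined into regions. Of 10755 regions, 32 lay within 50 kb of a clock gene start. Of the 23 assigned to a clock gene, 19 were within 5 kb, a share that was not counted over all regions. Of the 32 regions in the window, 14 held peaks of both ChIPs, 15 of GR alone and 3 of E2A alone. Over all regions the shares were 24.7%, 56.7% and 18.6% in the same order. A region bound in both ChIPs lay near 7 of the 10 clock genes, compared with 19.5% of all protein-coding genes.

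**Figure D3:**
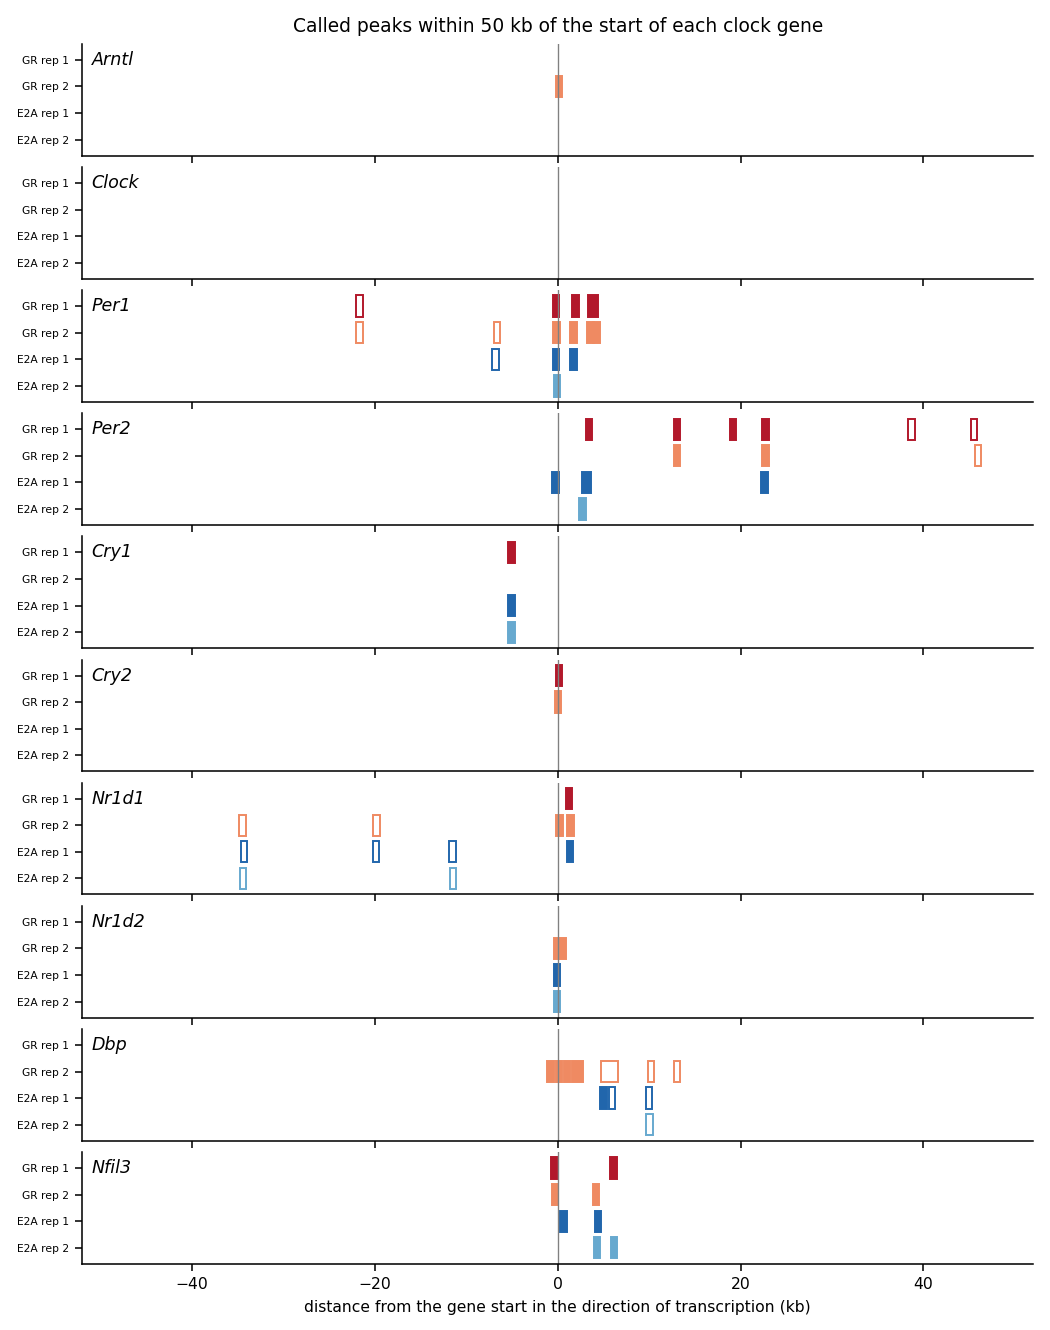
Called peaks within 50 kb of the start of each clock gene, by distance from the start in the direction of transcription (kb), 1 line per sample. Filled bars are peaks assigned to the clock gene and open bars peaks assigned to a neighbour, and bars shorter than 0.7 kb are drawn at 0.7 kb. Peaks of both ChIPs stack at the Per1 start, upstream of Cry1 and in the first introns of Nr1d1 and Nfil3, and Clock has none.

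Arntl and Clock encode the activators of the loop. Arntl had 2 assigned peaks, as many as Cry2, which encodes a repressor, and Clock had none. At Arntl, GR replicate 2 had a peak of 305 bp over the start (chr7:113207439-113207743), and the other 3 samples had none within 50 kb. The peak covered the RORE printed above (chr7:113207538-113207547), and the printed stretch meets an exon in 3 of 6 GENCODE transcripts of Arntl. A second peak assigned to Arntl, in intron 2 at chr7:113260565-113260987, was called in E2A replicate 1 alone and lay 53100 bp from the start, just outside the window. The closest peak to the Clock start was 795018 bp away in GR replicate 1, 164118 bp in GR replicate 2, 669941 bp in E2A replicate 1 and 10499343 bp in E2A replicate 2.

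Per1 and Per2 encode repressors of CLOCK and BMAL1, and 5 of the 9 intronic regions assigned to a clock gene were theirs. The Per1 promoter was the one region at a clock gene called in all 4 samples (1 of 10 genes, all genes 4.49%). The peak was 568 bp wide in GR replicate 1 (chr11:69094749-69095316), 731 bp in GR replicate 2 (chr11:69094747-69095477), 498 bp in E2A replicate 1 (chr11:69094776-69095273) and 355 bp in E2A replicate 2 (chr11:69094929-69095283). All 4 peaks covered the start, and they shared 345 bp. The E-box CACGTG at chr11:69095067-69095072 lay in each of them, and a second one at chr11:69094883-69094888 lay in all but the peak of E2A replicate 2.

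In what the deposited annotation calls intron 1 of Per1, 1385 bp downstream of the GENCODE start, GR was called in both replicates and E2A in replicate 1. The GR peaks were 831 bp (chr11:69096757-69097587) and 749 bp (chr11:69096602-69097350) wide and the E2A peak was 450 bp wide (chr11:69096730-69097179). The GRE-like match at chr11:69097076-69097090 was inside all 3 peaks, and a match to TGACGTCA, the element bound by CREB, was in the GR peaks only (chr11:69097202-69097209).

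From 3323 bp downstream of the Per1 start, GR was called again in both replicates and E2A in neither. Replicate 1 had 1 peak of 1075 bp (chr11:69098562-69099636), and replicate 2 had 2 shorter peaks in the same interval (chr11:69098540-69099017 and chr11:69099331-69099609). The deposited annotation calls this region a promoter, and it covers the RefSeq promoter window chr11:69098699-69098998. It held a CACGTG (chr11:69098783-69098788), a TTATGCAA (chr11:69098925-69098932) and the second GRE-like match (chr11:69099416-69099430), each inside a peak of both GR replicates. Upstream, the promoter of the neighbour Vamp2 at 6389 bp had peaks in GR replicate 2 and E2A replicate 1, and the 3′ UTR of Tmem107 at 21261 bp had GR peaks in both replicates.

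Per2 had no peak at its start in the GR replicates. E2A replicate 1 had a promoter peak of 279 bp (chr1:91459427-91459705), 103 bp upstream of the start, over the D-box on the minus strand (chr1:91459442-91459449). In intron 1, from 2476 bp downstream, E2A was called in both replicates (999 bp, chr1:91455689-91456687, and 485 bp, chr1:91456364-91456848). GR replicate 1 had a peak of 305 bp there (chr1:91455788-91456092) that lay inside the longer E2A peak and did not touch the shorter one.

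The GR sites of Per2 shared by both replicates were deeper in the gene. In intron 4, 12890 bp downstream of the start, the GR peaks were 264 bp (chr1:91446123-91446386) and 301 bp (chr1:91446134-91446434) wide, with no E2A peak. In intron 9, 22365 bp downstream, GR peaks of 618 bp (chr1:91436290-91436907) and 783 bp (chr1:91436177-91436959) met a peak of 434 bp in E2A replicate 1 (chr1:91436484-91436917). Intron 7 had a peak in GR replicate 1 alone (chr1:91440042-91440336). The neighbour Hes6 had a GR peak in both replicates at 45316 bp and one in GR replicate 1 alone at 38382 bp.

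The cryptochrome genes Cry1 and Cry2, which encode the partners of PER proteins, differed in which ChIP was called. Cry1 had a single intergenic region 4896 bp upstream of its start, with peaks of 323 bp in GR replicate 1 (chr10:85189984-85190306), 361 bp in E2A replicate 1 (chr10:85189969-85190329) and 349 bp in E2A replicate 2 (chr10:85189960-85190308). The 3 peaks coincided almost base for base and shared 323 bp, whereas GR replicate 2 had no peak within 50 kb, although its list is the longest. None of the short sequences searched, other than CANNTG, was found in this region. Cry2 had a promoter region with GR in both replicates, 305 bp (chr2:92433756-92434060) and 442 bp (chr2:92433777-92434218), and no E2A peak within 50 kb. Just outside this window, 58373 bp from the Cry2 start, E2A replicate 1 had a peak.

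Nr1d1 and Nr1d2, which encode the REV-ERB repressors, had peaks of both ChIPs. In intron 1 of Nr1d1, 1075 bp downstream of the start, peaks of 332 bp in GR replicate 1 (chr11:98773927-98774258), 610 bp in GR replicate 2 (chr11:98773646-98774255) and 340 bp in E2A replicate 1 (chr11:98773830-98774169) shared 243 bp. The D-box at chr11:98774080-98774087 and the E-box at chr11:98774154-98774159 were in all 3 peaks. The E-box pair, at chr11:98773859-98773864 and chr11:98773874-98773879, was outside the peak of GR replicate 1. At the start itself GR replicate 2 alone had a peak of 341 bp (chr11:98774998-98775338).

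The E2A peaks called in both replicates near Nr1d1 were all assigned to neighbours. A region 11270 bp upstream, nearest to Msl1, had E2A in both replicates (418 bp in common) and no GR. A region 34152 bp upstream, at the promoters of Casc3 and Gm12359, had E2A in both replicates and GR in replicate 2. The promoter of Msl1, 19433 bp upstream, had GR in replicate 2 and E2A in replicate 1.

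At Nr1d2 the promoter carried E2A in both replicates, with peaks of 651 bp (chr14:18238862-18239512) and 329 bp (chr14:18239035-18239363), and GR in replicate 2 with a peak of 1320 bp (chr14:18238210-18239529). The GR peak was the widest one assigned to a clock gene in its list and contained both E2A peaks. The 3 E-boxes at chr14:18238525-18238530, chr14:18238570-18238575 and chr14:18238673-18238678 and the D-box at chr14:18238603-18238610 lay in its downstream end, intronic in 3 of 4 GENCODE transcripts, outside both E2A peaks. GR replicate 1 had no peak within 50 kb of Nr1d2.

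**Figure D4:**
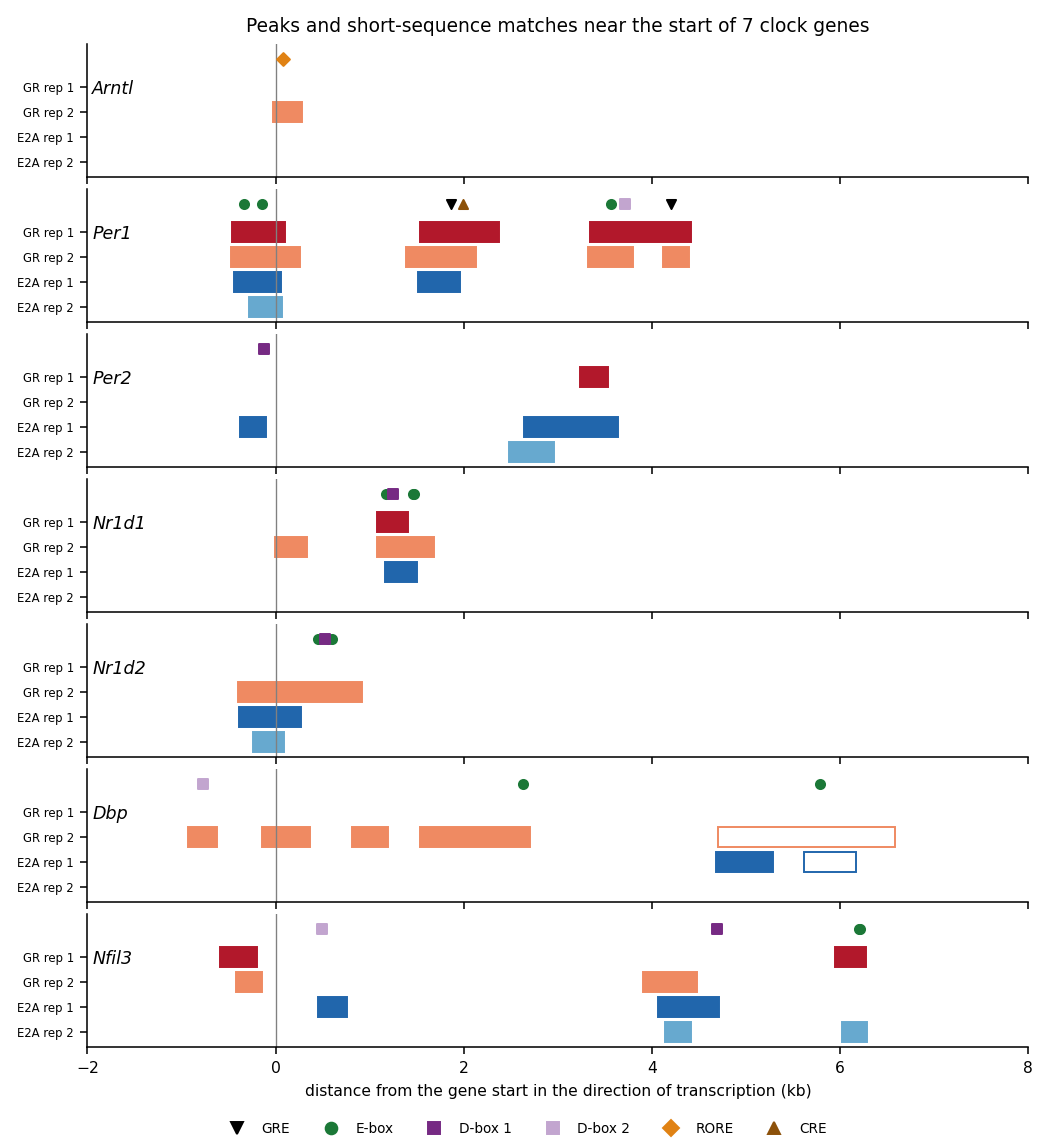
Peaks (bars, 1 line per sample, open bars assigned to a neighbour) and matches to short sequences (symbols) near the start of 7 clock genes, by distance from the start (kb). E-box stands for CACGTG, D-box 1 for TTATGTAA, D-box 2 for TTATGCAA and CRE for TGACGTCA. Only sequence inside regions assigned to the clock gene was searched for the symbols, so each lies in a called region and matches elsewhere are not drawn. Within these regions, the GRE symbols of Per1 lie under peaks of both GR replicates. The E-box and D-box symbols of Nr1d2 lie outside both E2A peaks.

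Dbp and Nfil3 encode the activator and the repressor that act at D-boxes, and their peaks differed in how far replicates matched. At Dbp, GR replicate 1 had 0 peaks within 50 kb and GR replicate 2 had 7. Of these, 4 were assigned to Dbp. They lay upstream (chr7:45704152-45704465), over the start (chr7:45704942-45705454), in intron 1 (chr7:45705902-45706280) and in exon 2 (chr7:45706628-45707796). GR replicate 2 is the list with the most peaks and the largest promoter share, and the part of either in this difference was not tested.

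E2A replicate 1 had a peak at the 3′ end of Dbp, in the 3′ UTR (chr7:45709771-45710372). It met a GR replicate 2 peak of 1874 bp that was assigned to the neighbour Sphk2 (chr7:45709795-45711668). At 9804 bp from the Dbp start, a Sphk2 promoter region had E2A peaks in both replicates and a GR peak in replicate 2, with 203 bp in common. At 12864 bp Sphk2 had a further peak in GR replicate 2 alone.

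Nfil3 had 2 peaks in every sample, at 4 positions. The promoter, 148 bp upstream of the start, had GR in both replicates (385 bp, chr13:52981275-52981659, and 278 bp, chr13:52981221-52981498) and no E2A. E2A replicate 1 alone had a peak 454 bp downstream (chr13:52980312-52980619), which held a TTATGCAA (chr13:52980579-52980586). In intron 1, 3908 bp downstream, E2A was called in both replicates (649 bp, chr13:52976363-52977011, and 281 bp, chr13:52976659-52976939) and GR in replicate 2 (575 bp, chr13:52976591-52977165).

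A second region of Nfil3 intron 1, 5943 bp downstream, was called in the other replicate of GR. GR replicate 1 had a peak of 335 bp (chr13:52974796-52975130) and E2A replicate 2 one of 263 bp (chr13:52974791-52975053), with 258 bp in common. Both covered the E-box pair at chr13:52974858-52974863 and chr13:52974873-52974878. No position of Nfil3 was called in all 4 samples, although each sample had 2 peaks there.

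The question of whether E2A sits where GR sits was addressed by counting GR regions near the clock genes that met an E2A peak. Merged within each ChIP, there were 29 GR regions and 18 E2A regions within 50 kb of a clock gene. Of the GR regions, 14 met an E2A peak (48.3%, 95% Wilson interval 31.4 to 65.6%), compared with 30.7% of all GR regions. Of the E2A regions, 15 met a GR peak (83.3%, 60.8 to 94.2%), compared with 58.1% of all E2A regions. Regions of 1 gene are not independent, whereas these intervals treat them as independent and cover at most counting error. They are no test against the shares over all regions.

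Few of these regions were called in all replicates. GR was called in both replicates in 10 of its 29 regions (34.5%, all GR regions 31.1%) and E2A in 8 of its 18 (44.4%, all E2A regions 23.4%). The Per1 promoter was the only region in both sets, so the overlap among regions called in both replicates was 1 of 10 for GR (10.0%, all such GR regions 17.1%) and 1 of 8 for E2A (12.5%, all such E2A regions 43.8%). Without GR replicate 2, 38.9% of the E2A regions met GR (all E2A regions 35.1%). Without E2A replicate 1, 24.1% of the GR regions met E2A (all GR regions 13.0%). The excess of E2A regions meeting GR at the clock genes thus shrank from 83.3% against 58.1% to 38.9% against 35.1% when GR replicate 2 was left out.

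Of the regions assigned to a clock gene within the window, 23 in number, 10 held both ChIPs (43.5%, all regions 24.7%), 11 GR alone (47.8%, all regions 56.7%) and 2 E2A alone (8.7%, all regions 18.6%). They were at promoters in 11 cases and in introns in 9, and 1 each was in an exon, in a 3′ UTR and intergenic. Counted as peaks, the promoter share at clock genes was near or below that of all peaks. It was 33.3% in GR replicate 1 (all peaks 34.3%) and 58.8% in GR replicate 2 (57.4%). In E2A replicates 1 and 2 it was 33.3% each (41.2% and 37.1%). The median width was 463 bp, against 417 bp over all regions, and the median GC content was 58.7% against 54.7%.

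The E-box CACGTG occurred in the central 300 bp of 3 of these 23 regions (13.0%, all regions 8.0%), at Per1, Nr1d1 and Nfil3. Over whole regions it occurred in 7 (30.4%, all regions 12.5%). The GRE with at most 1 mismatch was in the centre of 1, the first of Per1 (4.35%, all regions 1.05%), and in 2 whole regions, both in Per1 (8.7%, all regions 1.33%). With up to 2 mismatches the GRE was also in 1 centre (4.35%), near the share of all regions (4.51%). CANNTG, which includes CACGTG and is the sequence E2A recognises, was in 15 of 23 centres (65.2%, all regions 70.6%). The D-box TTATGTAA and TTATGCAA were each in 2 centres (8.7%, all regions 1.78% and 1.48%). In the central 200 bp they were in 0 and 1 regions (all regions 1.18% and 1.05%). Over whole regions they were in 4 and 3 (17.4% and 13.0%, all regions 2.77% and 2.35%). The RORE was in 1 centre, that of Arntl (all regions 0.967%). TGACGTCA was in 1 centre, that of Per1 (all regions 2.35%), and in 0 in the central 200 bp (all regions 1.7%). CACGTT, an E-box-like sequence, was in 1 centre (all regions 4.76%). With counts of 1 to 3 the shares move by 1 match, and the regions of the clock genes were also longer in the median.

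RefSeq promoters of 300 bp (GRCm38.p6, 250 bp before to 50 bp after a start) matched 9 of the 10 genes, all but Per2, with 13 windows. The 2 windows of Per1 (chr11:69098699-69098998 and chr11:69099902-69100201) lie downstream of the GENCODE start used above and do not include the region called in all 4 samples. CACGTG was present in 2 of the 13 windows, at Per1 and Cry1 (all promoters 7.15%), CACGTT in 3, at Cry1, Cry2 and Nr1d1 (4.68%), the RORE in 1 at Arntl (0.7%) and TTATGCAA in 1 at Per1 (0.743%). None of the 13 windows held TTATGTAA (0.938%), TGACGTCA (1.79%) or the GRE (0.164%).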

How the data were processed

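GR and E2A ChIP-Seq peaks of wild-type mouse liver were analysed, 2 samples per ChIP, grouped by title. Per the methods and processing notes, reads were mapped by the authors with BWA-MEM (0.7.13) against mm10, cleared of duplicates (Picard 1.119 in the notes), restricted to unique pairs and downsampled to 18 mio (GR) or 22 mio (E2A) pairs, and MACS2 (2.1.0 in the notes) called peaks in each sample. The methods give other versions of Picard and MACS2. The deposited values are start, end and width in bp and the nearest gene, from an annotation tool not given in the sources used here. No counts, heights or q-values accompany them, so precision per peak is unknown. GR replicate numbers follow the labels, and file names give them the other way round.

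Peaks sharing at least 1 bp were joined into regions. Distances run from the 5′ end of the gene in GENCODE M21 to the nearest base of a peak. Short sequences were searched on both strands in the central 300 bp of regions. Python 3.11.15, pandas 2.3.3, scipy 1.17.1, pysam 0.24.0, matplotlib 3.10.9 and samtools 1.23.1 were used, and the code was tested on simulated data. The results are counts without tests. The members, the lists and the searched sequences were chosen with earlier results of these data known. All clock genes are named, with neighbours of regions within 50 kb, genes with the closest peak counts, and other clock genes near a region of both ChIPs, of which 1 is not reported here. Sequences were to be printed for regions called in all 4 samples and for GRE matches under both GR replicates, and the others were picked after their matches were seen. Alternatives were other windows, starts, overlaps, widths, mismatches and replicates.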

Additional observations from a re-analysis of the deposited data

How the results depend on the processing

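Of 87 values under alternatives, 73 stayed within 1.5 times of the value reported (for shares, within its 95% Wilson interval) and 14 moved. Requiring both replicates of a ChIP reduced the regions from 32 to 17, the genes with a GR region from 9 to 5, the genes with a region of both ChIPs from 7 to 1, the GR regions meeting E2A to 10.0% and the E2A regions meeting GR to 12.5%. Leaving out 1 sample at a time gave 26 to 32 regions, 6 to 9 genes with GR, 7 with E2A in every case, 5 to 7 with both, 24.1 to 46.7% of GR regions meeting E2A and 38.9 to 82.4% of E2A regions meeting GR. Searching whole regions raised those with CACGTG from 3 to 7 and those with a GRE from 1 to 2, and TTATGTAA went from 2 to 4 there and to 0 in the central 200 bp. Over all regions CACGTG went from 8.0 to 12.5% and the GRE from 1.05 to 1.33%. TTATGTAA went from 1.78 to 2.77% over all regions, with 1.18% in the central 200 bp. The genes with an E2A region went from 7 to 9 at 100 kb and to 8 with any annotated transcript start. Windows of 10 and 100 kb left 7 genes with a region of both ChIPs, and centres within 250 bp left 6. Keeping only peaks at least as wide as the median of their sample also left 6. No paired analysis was possible because the results come from no test and no label ties a GR sample to an E2A sample of the same liver. The lists hold no heights, so a stricter peak threshold could not be applied, and width stood in for it. The cause of the changes was not tested.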

Other observations

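Further genes of the clock, 20 in number, were counted in the same way as the 10 genes above. Of these, 13 had a GR peak within 50 kb in at least 1 replicate (44% of all protein-coding genes) and 10 in both (21.4%). An E2A peak was near 10 (28.8%), with 5 in both replicates (11.4%), and 10 had a region of both ChIPs (19.5%). Regions called in all 4 samples covered the start of Bhlhe40, which encodes the E-box repressor DEC1, and of Noct, a rhythmic gene that encodes nocturnin. Another lay 7896 bp downstream of the start of Tef, a D-box activator related to DBP. Hlf, the other relative of DBP, had its closest region of both ChIPs, called in GR replicate 1 and E2A replicate 1, at 8171 bp. Per3, a relative of Per1 and Per2, had a region over its start in GR replicate 2 and E2A replicate 1, and Csnk1d, a kinase of PER proteins, had one over its start in both GR replicates and E2A replicate 1. Nampt, the enzyme of the NAD salvage pathway, had one at 366 bp in GR replicate 2 and E2A replicate 1. The regions of both ChIPs closest to Timeless (21598 bp) and Bhlhe41 (35851 bp) were assigned to Apon and Rassf8.

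The E-box pairs of Nr1d1 and Nfil3 have the same spacing. The starts of the CACGTG sequences lie 15 bp apart in both. Of all 10755 regions, 170 held 2 or more CACGTG (1.58%), with 210 neighbouring pairs, of which 63 started within 50 bp of each other. A spacing of 15 bp occurred in 2 pairs, and these were the pairs of Nr1d1 and Nfil3. A spacing of 16 bp occurred in 6 pairs and one of 14 bp in 3. The spacing was looked at after the sequences had been seen, and it is given as a count with no test.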
